A study of Mus musculus with 6 samples.

Results

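The genes described here are 10 factors that recognise the 3′ end of introns for the spliceosome: U2af1, U2af2, U2af1l4, Sf1, Puf60, Rbm39, Sf3a1, Sf3a2, Sf3b1 and Sf3b3. They were chosen by name for their function, with earlier results of these data known, and make up 10 of the 12134 genes in the splicing tables. Their introns account for 98 of the 85015 unique introns listed in any library, and 97 were listed in all 4 libraries and could be tested, among 63309 tested introns. In the long-read tables, 124 of the 116873 listed transcripts belong to these genes, and 89 of them had reads.

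The cells were E14 mouse embryonic stem cells of 129/Ola background, an established line, grown in serum with leukaemia inhibitory factor (LIF). They were transfected by Lipofectamine 2000 with a control siRNA or with an siRNA against Son, and RNA was taken 24 hours later, so both groups went through transfection. Sequencing covered total RNA depleted of ribosomal RNA (2 control and 2 Son knockdown samples) and Nanopore cDNA (1 sample of each). The labels do not say whether the 2 samples of a group came from separate cultures, so p-values measure the spread between these samples, which may be technical. For every intron the tables count split reads, which are spliced across the junction, and unsplit reads, which run from exon into intron. The splicing efficiency is the share of split reads among all reads at both ends of an intron.

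At the 3′ end of an intron, SF1 binds the branch point, U2AF2 the polypyrimidine tract and U2AF1 the AG dinucleotide. The U2 small nuclear ribonucleoprotein (U2 snRNP) then replaces SF1 at the branch point through its SF3A and SF3B subcomplexes. PUF60 and RBM39 are relatives of U2AF2 that share its type of protein-interaction domain, and U2AF1L4 is a shorter paralogue of U2AF1. SON is a large RNA-binding protein of nuclear speckles known for its role in removing introns with weak splice sites.

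Split reads at 5′ junctions totalled 16012286 and 10640247 for control cells against 14978479 and 10556187 for the knockdown, and long reads 3080426 (control) and 1874851 (knockdown). Spliced reads of Son, the targeted gene, were 281 and 312 CPM in control cells and 94.6 and 102 CPM in the knockdown, where CPM is the gene's share of all spliced reads of the library on the usual CPM scale. The quasi-likelihood test of edgeR gave a log2 fold change of −1.61 (standard error 0.087), with an adjusted p of 3.72e-10 after Benjamini-Hochberg correction over all genes. Son long reads numbered 217 in the library labelled control (70.4 CPM, 95% Wilson interval 61.7 to 80.5) and 37 in that labelled knockdown (19.7 CPM, 14.3 to 27.2). In the labels, both long-read samples, the control included, point to a knockdown total RNA sample as their source, so how these libraries relate to the total RNA samples is unclear. Of 8 stem cell markers, 7 had listed introns, and their summed level was 4481 and 4404 CPM in control cells and 4508 and 4358 CPM in the knockdown. Of 15 markers of other cell types, 5 had listed introns, with a sum of 32.0 to 41.1 CPM in the 4 libraries. Sox2 had no listed intron but had long reads in both libraries.

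Several of the genes make more than one transcript, and the sequences that tell these apart are shown first, because the values further on turn on them. They were taken from the GENCODE M21 transcript sequences and run 5′ to 3′. Exon 3 of U2af1 exists in 2 versions of equal length, used by U2af1-201 and U2af1-202, and capitals mark the bases that differ between them.
U2af1 exon 3 of U2af1-201: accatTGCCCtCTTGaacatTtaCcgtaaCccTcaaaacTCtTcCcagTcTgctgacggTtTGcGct
U2af1 exon 3 of U2af1-202: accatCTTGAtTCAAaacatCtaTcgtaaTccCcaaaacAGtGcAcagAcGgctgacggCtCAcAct
Both are 67 bases long, 44 bases are identical (65.7%) and 23 differ. U2af1-208, annotated as a target of nonsense-mediated decay (NMD), holds both versions one after the other.

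U2af2-209 uses a 5′ splice site 12 bases downstream of that in U2af2-201, and capitals mark the bases that only its longer exon 10 holds.
U2af2 end of exon 10 in U2af2-209: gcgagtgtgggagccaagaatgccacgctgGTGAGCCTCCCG
The other 2 sequences are the spliced junctions of the introns whose mean efficiency differed most in the set, among introns with 50 or more reads in each library. The first is the junction that removal of intron 5 leaves in Puf60-201, and the second the junction that removal of intron 7 leaves in U2af1l4-201, with the bases after the intron in capitals.
Puf60 junction of exons 5 and 6: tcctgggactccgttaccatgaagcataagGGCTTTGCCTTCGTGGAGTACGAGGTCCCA
U2af1l4 junction of exons 7 and 8: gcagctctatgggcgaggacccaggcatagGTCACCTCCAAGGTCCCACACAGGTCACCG

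The comparison asked whether introns and RNA levels of these factors differed between control and Son knockdown cells. Puf60 was the one gene among the 9 tested whose spliced reads passed the test, and they were lower in the knockdown. Over all genes tested, 8.72% were called in spliced reads. U2af1l4, which could be tested only after an intron shared with another gene was kept, also had fewer spliced reads. For U2af1, U2af2, Sf1, Rbm39 and all 4 SF3 subunits no change in spliced reads passed the test. No intron of any of the 10 genes passed the test of splicing efficiency, where 1.76% of all tested introns were called.

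Puf60 codes for a poly(U)-binding protein that helps U2 snRNP onto weak 3′ splice sites. It had 114 and 123 CPM of spliced reads in control cells and 75.1 and 67.1 CPM in the knockdown. Both knockdown libraries lay below both controls, an order that was not counted over all genes. The log2 fold change of −0.75 had a standard error of 0.098 and an adjusted p of 1.85e-05 (edgeR). Of the 9474 genes tested, 8.72% were called, 6.76% with fewer and 1.96% with more spliced reads. In bulk RNA, less RNA per cell and fewer cells that make it cannot be told apart. The long reads of Puf60 numbered 466 in the control and 128 in the knockdown, or 151 CPM of the library total (138 to 166, 95% Wilson interval) against 68.3 CPM (57.4 to 81.2). The log2 ratio was −1.14. It was the one member at least 2-fold lower in the long reads, a size reached by 4.16% of the 9611 genes with at least 20 reads, while 2.21% were at least 2-fold higher. With 1 long-read library per group this difference has no replicate check, and the intervals cover counting error only.

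**Figure D1:**
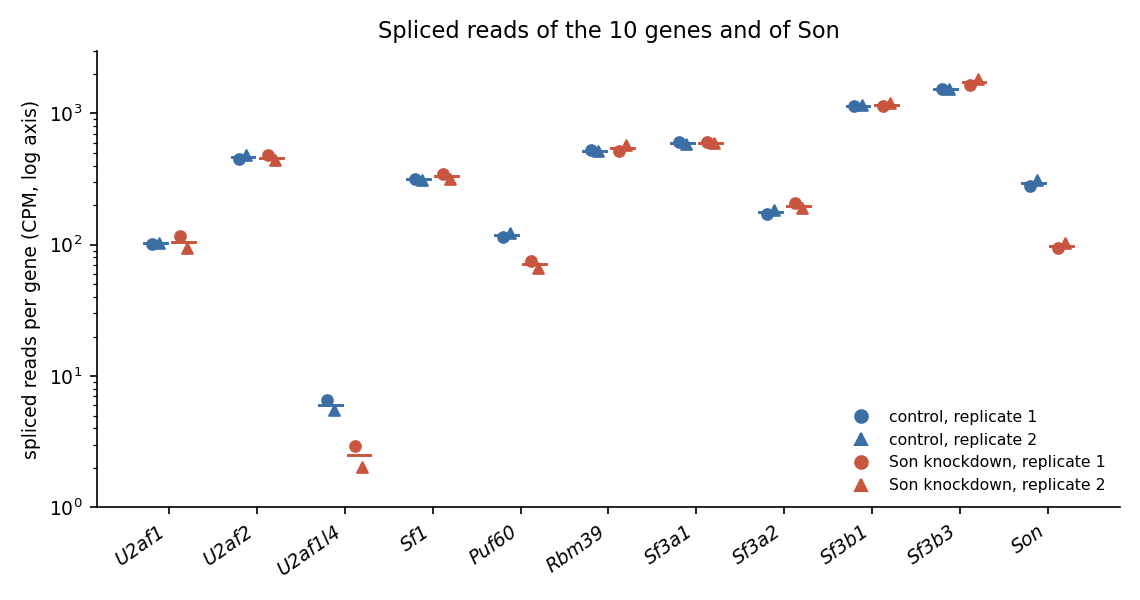
Spliced reads per gene in CPM (log axis) for the 10 genes and Son. Each point is a total RNA library and each line a group mean. Puf60 and U2af1l4 sit lower in both knockdown libraries, and Son falls from 296 to 98.5 CPM. Of the other 8 genes, 3 (Sf1, Sf3a2 and Sf3b3) sit higher in both, and no change passed the test. How many of all genes show either order was not counted. U2af1l4 rests on 1 intron that is also listed under another gene.

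Puf60 had 5 listed introns, and in 4 of them both knockdown libraries were below both controls in splicing efficiency. Over all introns tested this order was found for 24.3%, and the reverse for 13.1%. Intron 5 of Puf60-201 (chr15:75944175-75944255, GRCm39, 81 nt, between the exons whose junction is printed above) had an efficiency of 0.942 and 0.934 in the controls. It was 0.836 and 0.806 in the knockdown, with 37 and 27 unsplit reads against 20 and 17 in the controls, and 189 and 112 split reads against 323 and 240. The means were 0.938 ± 0.0055 and 0.821 ± 0.022 (SD, n = 2 each). Its log2 odds ratio of unsplit against split reads, positive where splicing is less complete in the knockdown, was 1.70 (standard error 0.52). The adjusted p of 0.0653 (edgeR quasi-likelihood test) missed the threshold of 0.05.

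The other Puf60 introns differed less. Intron 4 of Puf60-202 had 0.868 and 0.899 in control cells and 0.819 and 0.820 in the knockdown. Intron 6 had 0.980 and 0.951 against 0.947 and 0.913, and intron 10 had 0.986 and 0.971 against 0.958 and 0.964. Intron 7, only 83 nt long, had 0.973 and 0.960 against 0.968 and 0.961, so its groups overlapped. Summed over the 5 introns, efficiency was 0.960 ± 0.0082 in control cells and 0.936 ± 0.0048 in the knockdown (SD, n = 2 each). For the gene, the log2 odds ratio was 0.74 (standard error 0.27; edgeR, adjusted p = 0.0872).

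The shares of the Puf60 transcripts had overlapping intervals in the long-read libraries. Puf60-201 took 50.0% of the gene's long reads in both libraries (233 and 64 reads). Puf60-202 took 35.6% (95% interval 31.4 to 40.1) and 31.2% (23.9 to 39.7), from 166 and 40 reads. Puf60-204, annotated as an NMD target, took 10.1% (7.67 to 13.2) and 11.7% (7.23 to 18.4). Puf60-211, a retained-intron transcript, went from 13 to 7 reads, or 2.79% (1.64 to 4.71) and 5.47% (2.67 to 10.9).

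U2af1l4 codes for a paralogue of the small U2AF subunit that differs from U2AF1 mainly at its C-terminal end. Its table entry is thin: of 7 introns of U2af1l4-201, 1 was listed, intron 7 (chr7:30264224-30264519, GRCm39, 296 nt), which is also listed under the overlapping gene Gm49396. The reads of these genes cannot be told apart. Split reads at its 5′ junction numbered 102 and 57 in control cells and 43 and 21 in the knockdown, or 6.01 ± 0.76 and 2.49 ± 0.65 CPM (SD, n = 2 each). With shared introns kept, its log2 fold change in the edgeR test was −1.27 (standard error 0.29, adjusted p = 0.00636). Without control replicate 1 it was −1.13 and no longer called (adjusted p = 0.117), and DESeq2 gave −1.28 with no adjusted p. The efficiency of this intron was 0.800 and 0.831 in control cells and 0.704 and 0.585 in the knockdown. Its log2 odds ratio was 1.24 (standard error 0.49; edgeR, adjusted p = 0.26).

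In the long reads, U2af1l4 as a whole was not lower: it had 93 reads in the control and 72 in the knockdown library, or 30.2 CPM (24.6 to 37.0) and 38.4 CPM (30.5 to 48.4). Its make-up differed between the libraries. U2af1l4-201, a coding transcript with the junction shown above, went from 39 reads (41.9%, interval 32.4 to 52.1) to 7 reads (9.72%, 4.79 to 18.7). The retained-intron transcript U2af1l4-229 went from 7 reads (7.53%, 3.69 to 14.7) to 17 reads (23.6%, 15.3 to 34.6). Reads of all transcripts annotated as coding made up 73.1% (63.3 to 81.1) and 41.7% (31.0 to 53.2), and of retained-intron transcripts 26.9% (18.9 to 36.7) and 48.6% (37.4 to 59.9). U2af1l4 was the one gene of the 10 whose intervals for the coding share did not overlap. How often intervals for the coding share lie apart over all genes was not counted, and they cover counting error only.

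**Figure D2:**
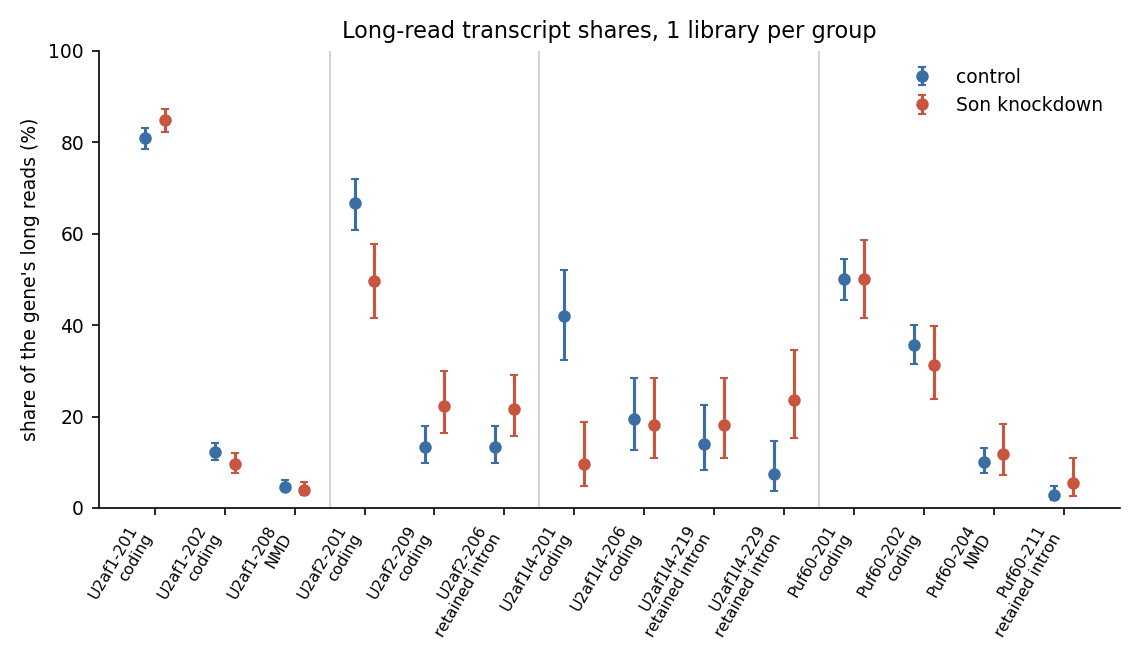
Share of each gene's long reads (%) taken by the transcripts of U2af1, U2af2, U2af1l4 and Puf60 that have at least 20 reads, with 95% Wilson intervals that cover counting error only; 1 library per group. U2af1l4-201 is at 41.9% in the control and 9.72% in the knockdown, and U2af2-201 at 66.7% and 49.7%, while the intervals of the Puf60 shares overlap.

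U2af1, the subunit that contacts the AG of the 3′ splice site, had 101 and 103 CPM of spliced reads in control cells and 116 and 93.6 CPM in the knockdown. The knockdown libraries lay on either side of the controls, and its log2 fold change in the edgeR test was 0.02 (standard error 0.10, adjusted p = 0.942). Its long reads were 395 CPM (373 to 418) and 398 CPM (371 to 428). For both versions of exon 3 the shares had overlapping intervals. U2af1-201 took 80.9% (78.6 to 83.0) in the control and 84.9% (82.1 to 87.3) in the knockdown, from 984 and 634 reads. U2af1-202 took 12.2% (10.4 to 14.1) and 9.64% (7.72 to 12.0), from 148 and 72 reads. U2af1-208, with both exons, took 4.69% and 4.02%. These exons were not followed in the splicing tables, where introns 2 and 3 of U2af1-201, on either side of exon 3, are not listed.

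Among the 5 listed introns of U2af1, read support was very uneven. Split reads over both ends went from 1430 and 990 at intron 4 in the controls to 385 and 285 at intron 6 and 60 and 43 at intron 7. Intron 6 (chr17:31867070-31867156, 87 nt) had efficiencies of 0.982 and 0.973 in control cells and 0.984 and 0.949 in the knockdown. Intron 7 (647 nt) had 0.938 and 0.896 in control cells and 0.859 and 0.581 in the knockdown, a log2 odds ratio of 1.81. This intron, the largest odds ratio in the set, was singled out after its values were seen. It rests on 18 split and 13 unsplit reads in knockdown replicate 2 and did not pass the adjusted test.

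U2af2, the large subunit that binds the polypyrimidine tract, had 447 and 481 CPM of spliced reads in control cells and 479 and 438 CPM in the knockdown (log2 fold change −0.04, standard error 0.073; edgeR, adjusted p = 0.845). Its first intron went the opposite way from those of Puf60. Intron 1 (chr7:5065336-5069401, 4066 nt) had efficiencies of 0.941 and 0.952 in control cells and 0.975 and 0.967 in the knockdown. Its unsplit reads were 101 and 63 in control cells and 45 and 33 in the knockdown. The log2 odds ratio was −0.95 (standard error 0.36; edgeR, adjusted p = 0.215). It was called only where split and unsplit reads were scaled separately (−1.09, adjusted p = 0.0431). The other 6 introns had log2 odds ratios from −0.41 to 0.35.

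The choice between the U2af2 5′ splice sites printed above was read in both assays. In the long reads U2af2-201 took 66.7% (60.8 to 72.0) in the control and 49.7% (41.6 to 57.7) in the knockdown, from 180 and 71 reads. U2af2-209, with the 12 extra bases, took 13.3% (9.79 to 17.9) and 22.4% (16.3 to 29.9), and the retained-intron transcript U2af2-206 13.3% (9.79 to 17.9) and 21.7% (15.7 to 29.1). Long reads of U2af2-209 numbered 36 and 32. The total RNA gives this choice with more reads but on another measure. There the downstream site is set against the shared acceptor, not against all reads of the gene, so the percentages of the assays are not alike. Split reads at the downstream site were 413 and 274 in control cells and 437 and 293 in the knockdown, against 1617, 1120, 1548 and 1151 at the acceptor that both sites share. The downstream site thus accounted for 25.0% ± 0.76 in control cells and 26.8% ± 2.0 in the knockdown (SD, n = 2 each). Per sample, values were 25.5% and 24.5% against 28.2% and 25.5%, and the groups overlapped.

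SF1 holds the branch point before U2 snRNP arrives. Sf1 had 319 and 310 CPM of spliced reads in control cells and 346 and 319 CPM in the knockdown (log2 fold change 0.06, standard error 0.074; edgeR, adjusted p = 0.733). Its long reads were 180 CPM (165 to 195) and 146 CPM (129 to 164), a log2 ratio of −0.30 with intervals that did not overlap. How often such intervals lie apart over all genes was not counted. Of 9 tested introns, 1 had both knockdown libraries below the controls and 3 above, against 24.3% and 13.1% of all introns. Intron 5 of Sf1-202 (chr19:6421738-6422054, 317 nt) had efficiencies of 0.801 and 0.718 in control cells and 0.883 and 0.766 in the knockdown, with overlapping groups. Among its transcripts, Sf1-208 took 28.6% (25.0 to 32.5) and 24.9% (20.2 to 30.4) of the long reads. Sf1-204 took 14.6% (11.9 to 17.8) and 23.4% (18.8 to 28.8), from 81 and 64 reads. The NMD transcript Sf1-201 took 13.2% (10.6 to 16.3) and 12.5% (9.05 to 16.9).

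RBM39 is a U2AF2-like factor of speckles and the target of the aryl sulfonamide degraders. Rbm39 had 522 and 521 CPM of spliced reads in control cells and 517 and 578 CPM in the knockdown (log2 fold change 0.05, standard error 0.073; edgeR, adjusted p = 0.783). Without knockdown replicate 1, in a fit that leaves 1 knockdown library, the change was 0.13. In the long reads its level was lower, at 212 CPM (197 to 229) in the control and 143 CPM (127 to 162) in the knockdown, a log2 ratio of −0.56. Its introns were the least efficiently spliced of the genes with more than 1 listed intron, at 0.878 ± 0.012 in control cells and 0.886 ± 0.016 in the knockdown (SD, n = 2 each). None of its 13 tested introns had both knockdown libraries below the controls, and 2 had both above, against 24.3% and 13.1% of all introns.

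Rbm39-215, annotated as an NMD target, holds an exon, its exon 14, that lies within an intron of the main coding transcript Rbm39-203. Whether this exon is the reason for the annotation was not tested. Split reads at the acceptor of this exon were 0 and 0 in control cells and 1 and 0 in the knockdown, and at its donor 0 and 0 against 1 and 2. The outer sites of the flanking introns had 397 to 715 split reads in every library. In total RNA, inclusion was thus at or near the limit of detection in both groups, since a count of 0 allows up to 3. The long reads differed from this. Rbm39-215 was assigned 9 reads in the control (1.38%, 0.73 to 2.59) and 6 in the knockdown (2.23%, 1.03 to 4.78). Whether those reads hold the exon was not tested. The low efficiencies of the flanking introns, such as 0.789 and 0.770 in control cells and 0.851 and 0.792 in the knockdown for intron 14 (chr2:155992737-155994382), stand beside ends of which 1 was used in nearly all RNA. Among long reads, Rbm39-201 took 24.6% (21.5 to 28.1) and 20.1% (15.7 to 25.3) and the NMD transcript Rbm39-225 5.35% (3.87 to 7.35) and 7.06% (4.57 to 10.8). All NMD transcripts of the gene together took 13.9% (11.5 to 16.8) and 19.0% (14.7 to 24.1).

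**Figure D3:**
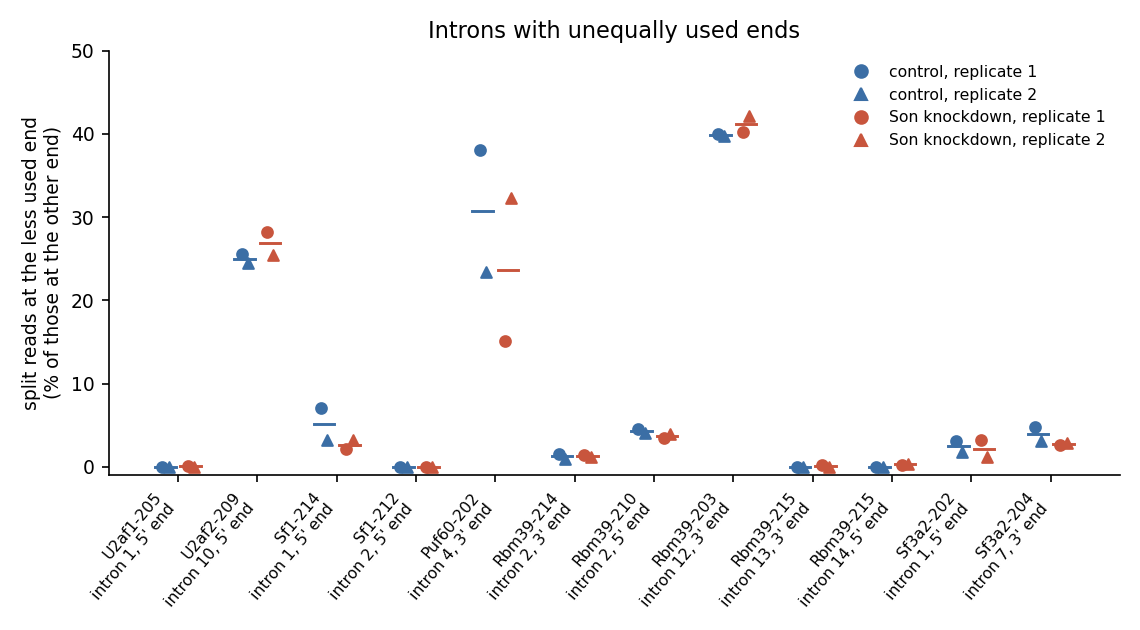
Split reads at the less used end of an intron as a percentage of those at its other end, for the 12 introns with unequally used ends. Points are total RNA libraries and lines are group means; a low value means that another splice site is used in most RNA. The U2af2 values lie between 24.5% and 28.2% in all 4 libraries, and both ends of the NMD exon of Rbm39-215 stay near 0.

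Of the 97 introns, 12 had ends that differed more than 2-fold in split reads, and 5 of these belong to Rbm39. Split reads are counted at each end, so an end shared with another intron takes the reads of both. In 11 of the 12 the share at the less used end differed by under 3 percentage points between the group means. The exception was intron 4 of Puf60-202, at 30.8% ± 10.4 and 23.7% ± 12.1 (SD, n = 2 each). With these introns left out, the same single gene, Puf60, was called in spliced reads and no gene in splicing efficiency.

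The SF3A subunits join U2 snRNP together with SF3B and are needed for its binding to the branch point. Sf3a1 had 610 and 584 CPM of spliced reads in control cells and 604 and 593 CPM in the knockdown (log2 fold change −0.02, standard error 0.067; edgeR, adjusted p = 0.931). Its splicing efficiency was 0.971 ± 0.0069 and 0.971 ± 0.0043 (SD, n = 2 each). Of its 13 introns, 3 had both knockdown libraries below the controls and 2 above, against 24.3% and 13.1% of all introns. Intron 6 (chr11:4123231-4124031, 801 nt) had efficiencies of 0.972 and 0.940 in control cells and 0.980 and 0.977 in the knockdown. Long reads came almost wholly from Sf3a1-201, with 94.98% (91.9 to 96.9) and 96.7% (92.5 to 98.6).

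Sf3a2, which codes for the zinc-finger subunit next to SF3A1, had 172 and 184 CPM of spliced reads in control cells and 207 and 190 CPM in the knockdown. Both knockdown libraries were above both controls, an order that Sf1 and Sf3b3 also had and that was not counted over all genes. The log2 fold change of Sf3a2 in the edgeR test was 0.14 (standard error 0.082, adjusted p = 0.379). Without knockdown replicate 2, in a fit that leaves 1 knockdown library, it was 0.20. Intron 1 of Sf3a2-202 (chr10:80634937-80637029, 2093 nt) had efficiencies of 0.935 and 0.913 in control cells and 0.880 and 0.845 in the knockdown (log2 odds ratio 0.95; edgeR, adjusted p = 0.397). Its 5′ end is rarely used, with 16, 7, 16 and 3 split reads in the 4 libraries against 516, 393, 503 and 259 at the 3′ end. The long reads were 115 and 53, nearly all Sf3a2-203 (98.3% and 94.3%).

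SF3B1 clamps the branch point helix and is mutated in blood cancers, and SF3B3 is its large scaffold partner. Sf3b1 had 1137 and 1149 CPM of spliced reads in control cells and 1134 and 1193 CPM in the knockdown (log2 fold change 0.005, standard error 0.064; edgeR, adjusted p = 0.98). Its 20 tested introns, from 80 to 7938 nt, had group means of 0.890 to 0.995 in control cells and 0.885 to 0.994 in the knockdown. Intron 20 (chr1:55034646-55035975, 1330 nt) moved most, from 0.905 and 0.929 to 0.905 and 0.864, with overlapping groups. The retained-intron transcript Sf3b1-203 took 5.61% (3.58 to 8.69) and 4.09% (2.0 to 8.21) of the long reads, and Sf3b1-201 86.9% and 87.1%.

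Sf3b3 had 1539 and 1542 CPM of spliced reads in control cells and 1655 and 1833 CPM in the knockdown. Both knockdown libraries were above both controls, an order that was not counted over all genes. The log2 fold change of 0.16 (standard error 0.066, edgeR adjusted p = 0.173) did not pass the test. Without knockdown replicate 1, in a fit that leaves 1 knockdown library, it was 0.24. None of its 17 tested introns had both knockdown libraries below the controls, and 6 had both above, against 24.3% and 13.1% of all introns. Over these introns, efficiency was 0.957 ± 0.0034 in control cells and 0.963 ± 0.0031 in the knockdown (SD, n = 2 each), and the log2 odds ratio was −0.21 (standard error 0.20; edgeR, adjusted p = 0.831). It passed the test where split and unsplit reads were scaled separately (−0.33, adjusted p = 0.0201) and with DESeq2's own size factors (−0.37, adjusted p = 0.0277). Intron 20 (chr8:111541288-111542534, 1247 nt) had 0.943 and 0.917 in control cells and 0.967 and 0.958 in the knockdown. The long reads were 250.3 CPM (233 to 269) and 215 CPM (195 to 238), and the retained-intron transcript Sf3b3-203 took 11.2% (9.12 to 13.6) and 8.91% (6.51 to 12.1) of them.

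**Figure D4:**
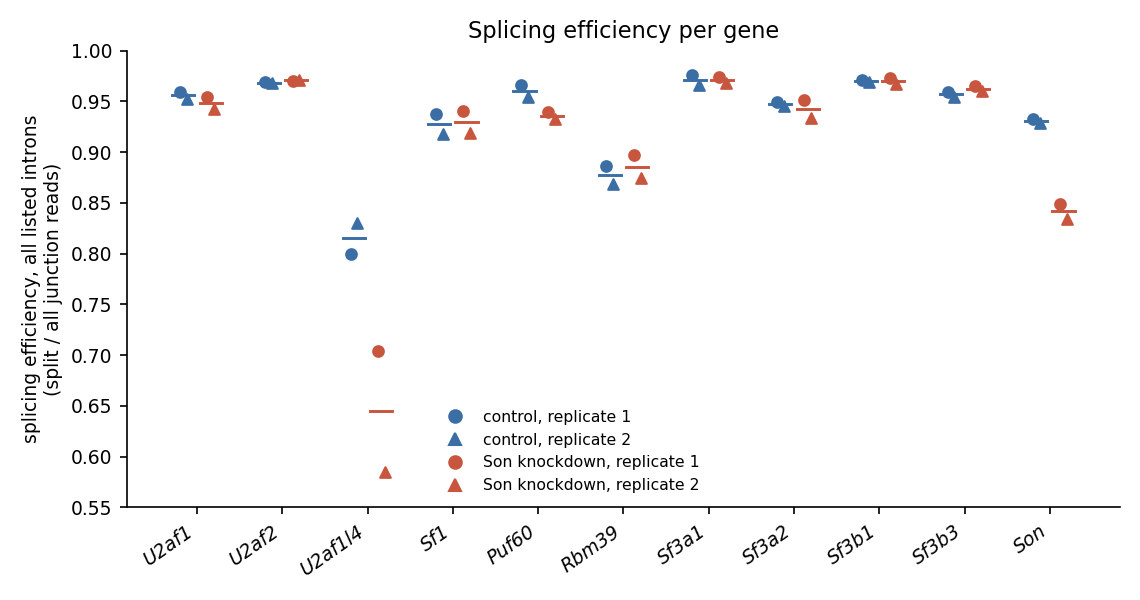
Splicing efficiency summed over the listed introns of each gene (split reads over all junction reads; the axis starts at 0.55). Points are libraries and lines are group means. Puf60, U2af1l4 and Son are lower in both knockdown libraries. Sf3b3 and U2af2 are higher in both (U2af2 0.9688 and 0.9685 in control cells, 0.9702 and 0.9715 in the knockdown). How many of all genes show either order was not counted. U2af1l4 rests on 1 intron shared with another gene.

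Across the 97 tested introns, none was called by the edgeR test, which called 1.76% of all introns tested, 1.71% lower and 0.0442% higher in efficiency. At an unadjusted p below 0.05 there were 9, with 6 lower and 3 higher in efficiency, against 9.72% of all introns. DESeq2 called none (7 at an unadjusted p below 0.05), and neither did limma (3), which called no intron in the whole table. Both knockdown libraries were below both controls in 15 introns (15.5%) and above in 18 (18.6%), where all introns gave 24.3% and 13.1%. The median log2 odds ratio was −0.04, against 0.12 over all introns. The latter depended on scaling and library: −0.015 with separate scaling, −0.034 with DESeq2's own size factors, and −0.005 to 0.26 with a replicate left out. Medians of the members under these settings are not given here. The 97 introns were well covered, with a median of 1148.5 junction reads per library against 198 over all introns. They were efficiently spliced, with a median of 0.956 in controls against 0.933.

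The share of introns with both knockdown libraries below the controls was also counted by intron length. Among all introns up to 100 nt, both knockdown libraries were below both controls in 42.3% of 4253. Among the 18 members of that length it was 1, Puf60 intron 5, and 4 had the opposite order, which 8.23% of all introns of that length had. Between 101 and 1000 nt, 12 of 49 members were below and 11 above, against 29.6% below and 11.4% above over all introns. Above 1000 nt, 2 of 30 were below and 3 above, against 18.0% below and 14.9% above over all introns.

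**Figure D5:**
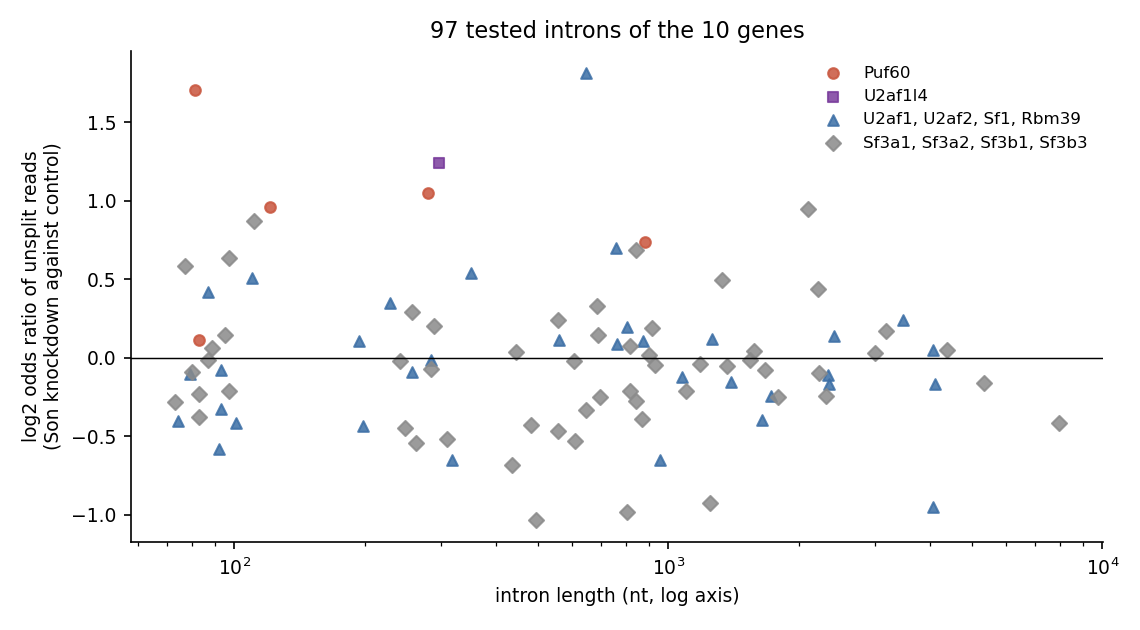
Log2 odds ratio of unsplit reads (Son knockdown against control; above 0 means less efficient splicing in the knockdown) against intron length in nt (log axis) for the 97 tested introns. All 5 Puf60 introns lie above 0, from 0.12 to 1.70, and the SF3 subunits spread from −1.03 to 0.95.

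At the level of genes, none of the 9 tested genes changed in splicing efficiency by the edgeR test. Of all 9370 genes tested 7.11% were called, 6.98% with lower efficiency. At an unadjusted p below 0.05 there was 1, Puf60, against 13.8% of all genes. DESeq2 with its own size factors called 1 member, Sf3b3, with 3 at an unadjusted p below 0.05, and 537 of all genes. With one size factor per library, a setting added after the data were seen, DESeq2 called no member and 506 of all genes. With limma no gene of the whole table was called. In both of these fits 1 member had an unadjusted p below 0.05. The median log2 odds ratio was −0.02 for the members and 0.09 for all genes, and separate scaling of split and unsplit reads moved the latter to −0.03. The median log2 fold change of spliced reads was 0.02 for the members and 0.01 for all genes. In the long reads the median log2 ratio was −0.24 for the members and −0.01 for all genes.

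Levels can be compared between genes only per junction. In controls the median split reads at the 5′ ends of a gene's listed introns were highest for Sf3b3, at 89.1 ± 2.9 CPM, and then U2af2 (66.9 ± 5.3). Sf3b1 (46.5 ± 0.89), Sf3a1 (46.0 ± 1.9) and Rbm39 (43.5 ± 0.92) followed, and neighbours among these 3 were not separated beyond the spread of both. Sf1 (32.8 ± 4.3) and Sf3a2 (26.4 ± 0.88) came next. U2af1 (13.3 ± 0.96) and Puf60 (12.8 ± 1.6) did not differ beyond their spread, and U2af1l4 was lowest at 6.01 ± 0.76 (SD, n = 2 for every gene). The order of the middle genes depends on introns with a little used end, such as intron 1 of U2af1-205, whose 5′ end had 0 split reads in both controls. Over introns with evenly used ends, a choice made after the data were seen, U2af1 had 26.9 ± 0.051 CPM (4 introns), level with Sf3a2 (26.4 ± 0.88). Puf60 then had 22.0 ± 0.99 CPM (4 introns) and Rbm39 47.5 ± 0.98 CPM (8 introns).

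A list of 23 further genes of the same step holds other SF3 subunits, the U2 snRNP proteins, helicases, and partners such as Cherp, Rbm17 and Rbm10. Of these, 20 could be tested. Spliced reads fell for 4 and rose for none, against 6.76% and 1.96% of all genes. Ddx39b, the helicase that helps U2 snRNP bind after U2AF, had 221 and 213 CPM in control cells and 162 and 143 CPM in the knockdown (log2 fold change −0.53; edgeR, adjusted p = 0.000223). Sf3b2, a subunit of SF3B, had 410.04 and 410.4 CPM against 338 and 264 CPM (−0.47, adjusted p = 0.00127). Rbm10, an RNA-binding regulator of alternative splicing, had 304 and 307 CPM against 229 and 235 CPM (−0.42, adjusted p = 0.000673). Cherp, a U2-associated protein, had 499 and 524 CPM against 412 and 407 CPM (−0.34, adjusted p = 0.00227). In the long reads, Ddx39b, Sf3b2 and Cherp had log2 ratios of −0.72, −0.75 and −0.83, whereas Rbm10 had 51.0 CPM (43.6 to 59.6) and 48.5 CPM (39.5 to 59.6), a log2 ratio of −0.07. With the best covered intron of each gene alone, Ddx39b was still called (adjusted p = 0.0293), and Sf3b2, Rbm10 and Cherp were not (adjusted p = 0.117, 0.106 and 0.319; edgeR). The Cherp change was not called without control replicate 1 (adjusted p = 0.0516) or control replicate 2 (adjusted p = 0.183).

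Splicing efficiency fell for 2 of the 20, Cherp and Rbm10, and rose for none, against 6.98% of all genes called lower. Cherp had 0.945 and 0.945 in control cells and 0.916 and 0.899 in the knockdown (log2 odds ratio 0.80, standard error 0.22; edgeR, adjusted p = 0.00481). Rbm10 had 0.956 and 0.953 against 0.923 and 0.921 (0.82, standard error 0.23; edgeR, adjusted p = 0.00691). Both calls were lost without control replicate 1 (adjusted p = 0.241 for Cherp and 0.349 for Rbm10), control replicate 2 (0.148 and 0.127) or knockdown replicate 2 (0.199 and 0.0718). Of the 183 tested introns on the list 1 was called, where 1.76% of all introns were, and it was intron 13 of Cherp (chr8:73216165-73216247, 83 nt). Its efficiency was 0.906 and 0.896 in control cells and 0.807 and 0.707 in the knockdown (log2 odds ratio 1.51; edgeR, adjusted p = 0.00495). It too was not called without control replicate 1 (adjusted p = 0.237), control replicate 2 (0.0707) or knockdown replicate 2 (0.155). Both knockdown libraries were below both controls in 55 of the 183 introns (30.1%) and above in 16 (8.74%), against 24.3% and 13.1% of all introns. The median log2 odds ratio of the 20 genes was 0.10, against 0.09 for all genes.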

How the data were processed

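For each total RNA library the authors deposited SPLICE-q counts per intron end (per the labels), of reads split across the intron and reads running into it. The splicing efficiency, a fraction that the authors deposited as a score, was recomputed here from the counts. The long-read tables hold counts per transcript, deposited by the authors. GRCm39, minimap2 and SAMtools are named in the submitters' processing notes, with no version or role. The total RNA aligner and strand setting are not given in the sources used here. Names and transcript sequences came from GENCODE M21 by identifier, and 1 sequence and the values that rest on it are not reported here.

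Introns were reduced to unique positions. Unsplit against split reads were tested with edgeR 4.0.16 (quasi-likelihood, a term per library, at least 10 split and 10 unsplit reads), for introns and for sums per gene without introns shared between genes. Spliced reads per gene (5′ split reads) were tested with edgeR, TMM and its expression filter. p-values were adjusted by Benjamini-Hochberg over all features, with a threshold of 0.05. DESeq2 1.42.0 and limma 3.58.1 were alternatives, and the scripts were tested on simulated data. Printed CPM values are not TMM-scaled. Long reads used CPM of the library total, a pseudocount of 0.5, at least 20 reads and 95% Wilson intervals. These depths set the precision, and intervals cover counting error only.

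All 10 members are named. Introns named are those called and, per gene, the one with the largest difference in mean efficiency with 50 or more reads in each library. Transcripts named are the up to 2 per gene with at least 20 long reads whose share moved most, and listed pathway genes where a test called them. Other transcripts and introns were chosen after their values were seen. Members and lists were chosen with earlier results of these data known. Intron by intron, same-numbered samples did not deviate together (r = 0.008). This correlation leaves out any shift shared by a whole library.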

Additional observations from a re-analysis of the deposited data

How the results depend on the processing

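The fall of Puf60 in spliced reads was called in all 12 alternatives, with log2 fold changes from −0.83 to −0.68 and adjusted p-values up to 0.00237. The number of member introns called was 0 and became 1 with separate scaling of split and unsplit reads (U2af2 intron 1) and 1 with the replicate block (Puf60 intron 5, adjusted p = 0.0279). Among the 9 genes tested without shared introns, the number called in splicing efficiency was 0. It became 1 with separate scaling, 1 with DESeq2's own size factors (Sf3b3 in both) and 1 with the replicate block (Puf60, 0.75, edgeR adjusted p = 0.00306). For U2af1l4, with shared introns kept, the log2 odds ratio ranged from 0.88 to 1.63 with a replicate left out. Whether same-numbered samples are pairs is not settled, because the correlation between them leaves out any shift of a whole library. At 5′ junctions, replicate 2 had more unsplit reads per split read in both groups. Unsplit reads were 920028 and 696201 in control cells and 971880 and 780552 in the knockdown, for replicates 1 and 2. The block is therefore given here only. Member genes called in spliced reads numbered 1, and 2 with shared introns kept; leaving out each replicate in turn gave 1 to 3.

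Of 528 single values under alternatives, 26 changed sign, and none of these was called either way. Sf3a1 efficiency gave −0.044 at the 3′ junction, −0.11 with separate scaling and −0.15 with DESeq2. Sf3a2 efficiency gave −0.0059 and −0.045 with separate scaling and DESeq2, and −0.19 with evenly used introns. Sf3b1 efficiency gave 0.057 at the 3′ junction, U2af1 intron 6 gave −0.0085 at the 5′ junction, and Rbm39 spliced reads −0.0070 with the best covered intron. Leaving out each replicate in turn gave efficiencies from −0.24 to 0.26 for Sf3a1, −0.12 to 0.35 for Sf3a2, −0.16 to 0.12 for Sf3b1, −0.27 to 0.20 for Sf1, −0.28 to 0.052 for Rbm39 and −0.44 to 1.25 for U2af1 intron 6. Spliced reads ranged from −0.14 to 0.16 for U2af1, −0.095 to 0.020 for U2af2, −0.039 to 0.13 for Rbm39, −0.049 to 0.013 for Sf3a1 and −0.039 to 0.048 for Sf3b1. The cause was not tested.

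Over all features, 1112 introns were called, but 232 and 322 at the 5′ or 3′ junction alone, 476 and 294 with DESeq2 (own or one factor per library), 0 with limma and 171 to 1427 with a replicate left out. For gene efficiency the count was 666, but 0 with limma, 1018 with the block and 180 to 702 with a replicate left out. For spliced reads it was 826, but 277 with the best covered intron and 381 to 2193 with a replicate left out. Groups of 2 limit every test here, and at 2 against 2 a call rests on the spread shared over all features.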

Other observations

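The total RNA and the long reads ranked U2af1 differently. It had the most long reads of the 10 genes, 1216 in the control and 747 in the knockdown library, while its median of split reads per listed junction in the controls was 13.3 ± 0.96 CPM, or 26.9 ± 0.051 CPM over introns with evenly used ends, against 89.1 ± 2.9 CPM for Sf3b3 (SD, n = 2 each). The tables list 4 of the 7 introns of U2af1-201, and over all 10 genes 85 of the 135 introns of the reference transcripts.

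Rbm39 and Sf1 had lower long-read levels in the knockdown library with intervals that did not overlap, while their spliced reads in total RNA did not pass the test. The long reads have no replicates, and these intervals cover counting error only. How often they lie apart over all genes was not counted.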
